A study of Caenorhabditis elegans with 2 samples.

Results

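The genes described here are 9 genes of the unfolded protein response (UPR) and of protein folding in the endoplasmic reticulum (ER), out of 19973 nuclear protein-coding genes of Caenorhabditis elegans. They comprise 5 regulators (xbp-1, atf-6, atf-4, ire-1 and pek-1) and 4 folding genes (crt-1, cnx-1, pdi-1 and pdi-2). The genes were chosen by name with their conservative peaks and signals from these data already known, so the members were in part selected on those values. The values at their start sites are therefore given as a description, without a test. The data are ChIP-seq peak lists from 2 biological replicates of a single group: whole young adults of strain OP810, 67 hours old, grown from synchronised L1 larvae that had been bleached and starved. Both replicates carried unc-119(tm4063) and the transgene wgIs810, which supplies unc-119(+) together with a C06A6.2 fusion that bears a TY1, an EGFP and a 3xFLAG tag. Chromatin was precipitated with an antibody to GFP. Worms without the tag and control libraries were not analysed here. Whole worms mix all tissues, so the tissue in which a site was occupied cannot be told from these lists.

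Proteins that enter the secretory pathway fold in the ER with the help of chaperones and of enzymes that form disulfide bonds. When unfolded proteins build up there, the UPR is switched on by sensors in the ER membrane: IRE-1, a kinase and endoribonuclease that splices the xbp-1 mRNA, PEK-1, the worm PERK kinase that slows translation and favours synthesis of ATF-4, and ATF-6, a membrane-bound factor that is released by cleavage. XBP-1, ATF-6 and ATF-4 are transcription factors of the bZIP type. Among the folding genes, crt-1 encodes calreticulin and cnx-1 encodes calnexin, lectin-type chaperones that bind calcium, while pdi-1 and pdi-2 encode protein disulfide isomerases.

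Of the 9 genes, 5 had a summit within 500 bp of an annotated transcription start site (TSS) in the joint conservative list, against 3.27% of all protein-coding genes. They were the 3 transcription factor genes among the 5 regulators and 2 of 4 folding genes, crt-1 and pdi-2. Neither of the kinase genes ire-1 and pek-1 was among them, a split that was seen only after the values were known. Extending the reach to 2000 bp added no further gene, while 6.45% of all genes had a summit in reach. The conservative list held 1346 peaks with a median signal of 87.4. Signal is the peak caller's value and is higher for stronger enrichment; the files do not state how it was scaled.

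The sequences under the summits of these 5 genes are shown because some of the words described further on, among them matches to words of UPR elements, lie in them. Words were counted within 150 bp of a summit, so others lie outside the printed stretches. Each is the stretch within 75 bp of the conservative summit, without annotated UTR bases, on the strand of the gene, from the RefSeq copy of WBcel235 (ce11). Capitals mark matches, on either strand, to any of 8 words: TGACGT (core of the UPR element and of other bZIP sites), ACGTG (its inner part), CCAAT and CCACG (the parts of the mammalian ER stress response element, ERSE), TGATGCAA (amino acid response element), GAANNTTC (heat shock element), GAGAGA (a GA repeat) and ACGCAG. The inner part can overlap the core and the second ERSE part where they share bases. The stretches were chrIII:4193724-4193808, plus strand for xbp-1, chrX:12480568-12480718, plus strand for atf-6, chrX:14810811-14810945, minus strand for atf-4, chrV:6100755-6100905, minus strand for crt-1 and chrX:4524020-4524154, plus strand for pdi-2.
xbp-1: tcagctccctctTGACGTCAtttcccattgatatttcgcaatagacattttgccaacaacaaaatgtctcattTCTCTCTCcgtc
atf-6: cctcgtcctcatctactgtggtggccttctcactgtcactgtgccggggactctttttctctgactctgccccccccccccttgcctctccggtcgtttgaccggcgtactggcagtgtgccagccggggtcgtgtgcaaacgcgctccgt
atf-4: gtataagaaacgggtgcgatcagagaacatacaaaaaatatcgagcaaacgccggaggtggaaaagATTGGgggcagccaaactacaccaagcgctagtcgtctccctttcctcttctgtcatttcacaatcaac
crt-1: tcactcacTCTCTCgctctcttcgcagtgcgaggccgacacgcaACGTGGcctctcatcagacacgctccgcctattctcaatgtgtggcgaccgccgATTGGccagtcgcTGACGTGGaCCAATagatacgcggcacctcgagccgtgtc
pdi-2: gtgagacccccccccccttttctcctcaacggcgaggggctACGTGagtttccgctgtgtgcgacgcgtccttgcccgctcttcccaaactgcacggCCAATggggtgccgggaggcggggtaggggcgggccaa

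The crt-1 stretch held TGACGTGG next to CCAAT, and its 11 bases CGTGGaCCAAT (chrV:6100781-6100791, minus strand) are a match on the opposite strand to ERSE-II, the mammalian element in which ATTGG and CCACG stand 1 base apart. This match lay 249 to 239 bp upstream of the crt-1 start. At pdi-2, a full ERSE, with CCAAT and CCACG 9 bases apart, spanned the start itself, from 4 bp before it to 14 bp after it: CCAATcgacgcgttCCACG (chrX:4524151-4524169, plus strand, 56 to 74 bp from the summit). Both elements were looked for after the sequences had been seen. Within 150 bp of a summit, crt-1 was the only 1 of 1346 conservative peaks with an ERSE-II and pdi-2 the only 1 with an ERSE. Among 19973 promoters of the same 301 bases, from 250 bp before to 50 bp after the gene's 5′ end, ERSE-II was found at 2 (crt-1 and mab-23), which is 0.0100%, and ERSE at 6 (0.0300%). A match is a description of the sequence and not evidence of which factor was bound.

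The stretch at xbp-1 held the palindrome TGACGTCA, the cAMP response element, starting 63 bp before the summit. This word was found at 31 conservative summits (2.30%) and at 1.53% of promoters. Of the shorter words, TGACGT was within 150 bp of the start-site summits of xbp-1, atf-4 and crt-1, against 12.3% of conservative summits and 10.4% of promoters. ACGTG was at those of xbp-1, crt-1 and pdi-2 (33.7% of conservative summits and 27.7% of promoters), and CCACG at the same 3 genes (35.5% and 21.8%). CCAAT was at atf-6, atf-4, crt-1 and pdi-2 (42.1% and 45.7%). GAGAGA was at xbp-1, atf-4, crt-1 and pdi-2, against 44.7% of conservative summits and 21.8% of promoters. TGATGCAA (2.30% and 1.20%), GAANNTTC (13.7% and 18.6%) and ACGCAG (26.1% and 8.24%) were at none of the 5 genes' start-site summits. The narrower stretch printed for atf-6, within 75 bp of its summit, held none of the 8 words.

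Among the regulators, xbp-1 (WBGene00006959, chromosome III, 4193809 to 4195358, plus strand) had the conservative peak of highest signal. The peak (4193639 to 4193958) had a signal of 100, rank 517 of 1346, and its summit lay 10 bp upstream of the TSS. The nearest other coding gene, dnj-16, was 370 bp from this summit. In the replicates' ranked lists, which hold 31655 and 28508 peaks, the overlapping peaks reached 50.3 in replicate 1 and 47.8 in replicate 2, with summits 46 bp apart. Both peaks were also in the replicate's own thresholded list, which keeps peaks whose rank is repeatable by the irreproducible discovery rate (IDR). In replicate 2 this was by a small margin, with an IDR score of 836 where the lowest score in that list was 830. IDR scores run to 1000 and are higher for more repeatable peaks.

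A further conservative peak of like signal lay beyond the other end of xbp-1. It had a signal of 94.6 (rank 582, 4195450 to 4195769), with its summit 1789 bp downstream of the nearer xbp-1 TSS and 252 bp past the annotated 3′ end, inside no annotated gene. The nearest other coding gene, asd-1, was 1675 bp away. Its ranked peaks had a signal of 36.1 in replicate 1, which was not in that replicate's thresholded list, and of 58.3 in replicate 2, which was. In replicate 2 this peak was stronger than the peak at the xbp-1 start, and in replicate 1 it was weaker. Its sequence holds CCACGTGG, with the E-box palindrome CACGTG, a word found at 14.2% of conservative summits and 5.84% of promoters (chrIII:4195535-4195685, plus strand):
xbp-1, past the 3′ end: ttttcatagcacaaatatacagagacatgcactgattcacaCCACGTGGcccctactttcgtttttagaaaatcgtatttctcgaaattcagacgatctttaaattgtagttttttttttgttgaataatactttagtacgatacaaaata

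The peak of atf-6 (WBGene00000222, X, 12480948 to 12484904, plus strand) stood farther from its start, with the summit 305 bp upstream of the single annotated TSS. Its signal was 94.2 in the conservative list (rank 593, 12480483 to 12480802). The ranked peaks had signals of 34.7 in replicate 1 and 54.3 in replicate 2, and only that of replicate 2 was in a thresholded list (IDR score 1000, against 545 in replicate 1). The nearest other coding gene, F45E6.1, was 3202 bp from this summit.

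At atf-4 (WBGene00000221, X, 14809156 to 14810810, minus strand) the conservative peak was the weakest of the 5, with a signal of 72.5 (rank 953, 14810710 to 14811029) and an IDR score of 930. The summit lay 60 bp upstream of the TSS, and in both replicates the ranked summits fell on the same base, 51 bp upstream. Their signals were 27.9 in replicate 1 (IDR score 349) and 45.3 in replicate 2 (997), and again only that of replicate 2 was in a thresholded list. The same summit was 66 bp upstream of the start of WBGene00303075, a short coding gene annotated on the same strand within atf-4, so the lists do not say which of these starts it belongs to. Replicate 1 also had a ranked summit 604 bp upstream of the atf-4 TSS, with a slightly higher signal of 28.4 and an IDR score of 46.

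The kinase genes had ranked peaks only. At pek-1 (WBGene00003970, X, 11410176 to 11414887, minus strand) the strongest ranked summit within 500 bp had a signal of 21.3 in replicate 1, 54 bp upstream, and of 18.7 in replicate 2, 2 bp upstream. In the joint ranked list this site had a signal of 38.0 and an IDR score of 225. The gene ire-1 (WBGene00002147, II, 8112243 to 8124910, minus strand) has 2 annotated starts, an outer at 8124910 and an inner at 8114945. In replicate 1 a weak summit lay 252 bp upstream of the outer start, with a signal of 10.5. Another lay 67 bp upstream of the inner start, with a signal of 11.1. Replicate 2 had none within 500 bp of either start. The strongest peak near ire-1 in the joint ranked list lay 1422 bp upstream of the outer start, with a signal of 48.8 and an IDR score of 180. It corresponded to ranked summits of 17.1 in replicate 1 and 34.0 in replicate 2. At the 5 start sites with a conservative peak, signals ran from 27.9 to 58.8 in replicate 1 and from 36.6 to 61.1 in replicate 2. The signals within 500 bp of the pek-1 and ire-1 starts were all below their replicate's range. So were the 17.1 and 34.0 farther upstream of ire-1. The range is that of genes picked by a conservative peak, which pek-1 and ire-1 lack, so lower values were largely built in. A summit in a ranked list is itself common: within 500 bp, 9 of 9 genes had one in replicate 1 and 8 of 9 in replicate 2, against 35.3% and 33.1% of all genes, and within 2000 bp all 9 had one in each replicate, against 70.1% and 66.9%.

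Among the folding genes, crt-1 (WBGene00000802, V, 6098992 to 6100542, minus strand) had the strongest peak of the 9 genes. It had a signal of 117 in the conservative list (rank 383, 6100670 to 6100989), 58.8 in replicate 1 and 61.1 in replicate 2, and it was in the thresholded list of each replicate. The replicate summits were 11 bp apart. The conservative summit lay 288 bp upstream of the crt-1 TSS and inside Y38A10A.8 (6100735 to 6100884), a name that the annotation gives to a pair of overlapping non-coding RNA genes, 1 on each strand. The next coding gene, Y38A10A.11, was 917 bp from the summit. Within 2000 bp, crt-1 had 5 ranked summits in each replicate, where the median gene had 1. In replicates 1 and 2, xbp-1 had 4 and 5 and atf-4 had 5 and 4. For ire-1, without a conservative peak, the counts were 6 and 2, with its outer and inner starts pooled. The remaining members had from 1 to 4. Apart from the main peak, the strongest crt-1 summit in the joint ranked list was 1614 bp downstream of the TSS, with a signal of 44.2 and an IDR score of 540.

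The conservative peak of pdi-2 (WBGene00003963, X, 4524155 to 4526536, plus strand) also lay in a non-coding RNA gene, C07A12.19 (4524046 to 4524172, same strand), with its summit 60 bp upstream of the pdi-2 TSS and 1951 bp from the nearest other coding gene, C07A12.7. The conservative signal was 74.8 (rank 908, 4523935 to 4524254). PDI-2 is a disulfide isomerase that also serves as a subunit of the collagen prolyl 4-hydroxylase. The ranked peaks had signals of 36.6 in replicate 1 and 36.6 in replicate 2, with summits 75 bp apart, and neither was in its replicate's thresholded list (IDR scores 621 and 287). The joint peak had an IDR score of 1000. Farther upstream of pdi-2, replicate 2 had a ranked summit at 1715 bp with a signal of 35.0 and an IDR score of 727. Replicate 1 had 17.1 at 1641 bp upstream. In the joint ranked list the signal there was 51.1, at 1669 bp upstream, with an IDR score of 171. Over the whole conservative list, 32.5% of peaks had their ranked peak in the thresholded list of neither replicate, 38.5% in both, 14.5% in that of replicate 1 alone and 14.5% in that of replicate 2 alone. Summits inside non-coding RNA genes of this class made up 9.01% of the 577 conservative summits within 500 bp of a coding TSS. None of the 3 regulators' start-site summits lay in such a gene, too few to set against this share or against the folding genes.

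The other isomerase gene, pdi-1 (WBGene00003962, III, 3699739 to 3701461, minus strand), had no thresholded peak. Its strongest ranked summit within 500 bp had a signal of 21.4 in replicate 1, 192 bp upstream, and of 14.1 in replicate 2, 205 bp upstream. In the joint ranked list the signal was 33.7 and the IDR score 72. At cnx-1 (WBGene00000567, III, 9814364 to 9817137, minus strand) the values were lower still, 10.9 in replicate 1 at 136 bp upstream and 12.2 in replicate 2 at 358 bp downstream. The replicates thus did not place a summit at the same position of cnx-1. Stretches are also printed around the strongest joint ranked summits within 500 bp of pek-1 and pdi-1, genes without a thresholded peak (chrX:11414888-11415016, minus strand, and chrIII:3701571-3701721, minus strand). ACGTG occurred in both and the E-box palindrome at pek-1. The longer TGACGT was in neither, nor was either part of ERSE. Within 75 bp, ACGTG was at 22.2% of all conservative summits, and it was in 16.4% of promoters of 151 bases. The stretch at cnx-1, with a joint ranked signal of 25.9 within 500 bp, is not printed. Whether these words go with the peaks was not tested.
pek-1: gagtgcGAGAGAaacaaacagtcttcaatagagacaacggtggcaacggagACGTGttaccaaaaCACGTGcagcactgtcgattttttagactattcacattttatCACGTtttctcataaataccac
pdi-1: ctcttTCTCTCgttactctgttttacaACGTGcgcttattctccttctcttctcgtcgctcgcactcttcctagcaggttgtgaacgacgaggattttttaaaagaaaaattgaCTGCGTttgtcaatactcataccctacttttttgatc

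**Figure D1:**
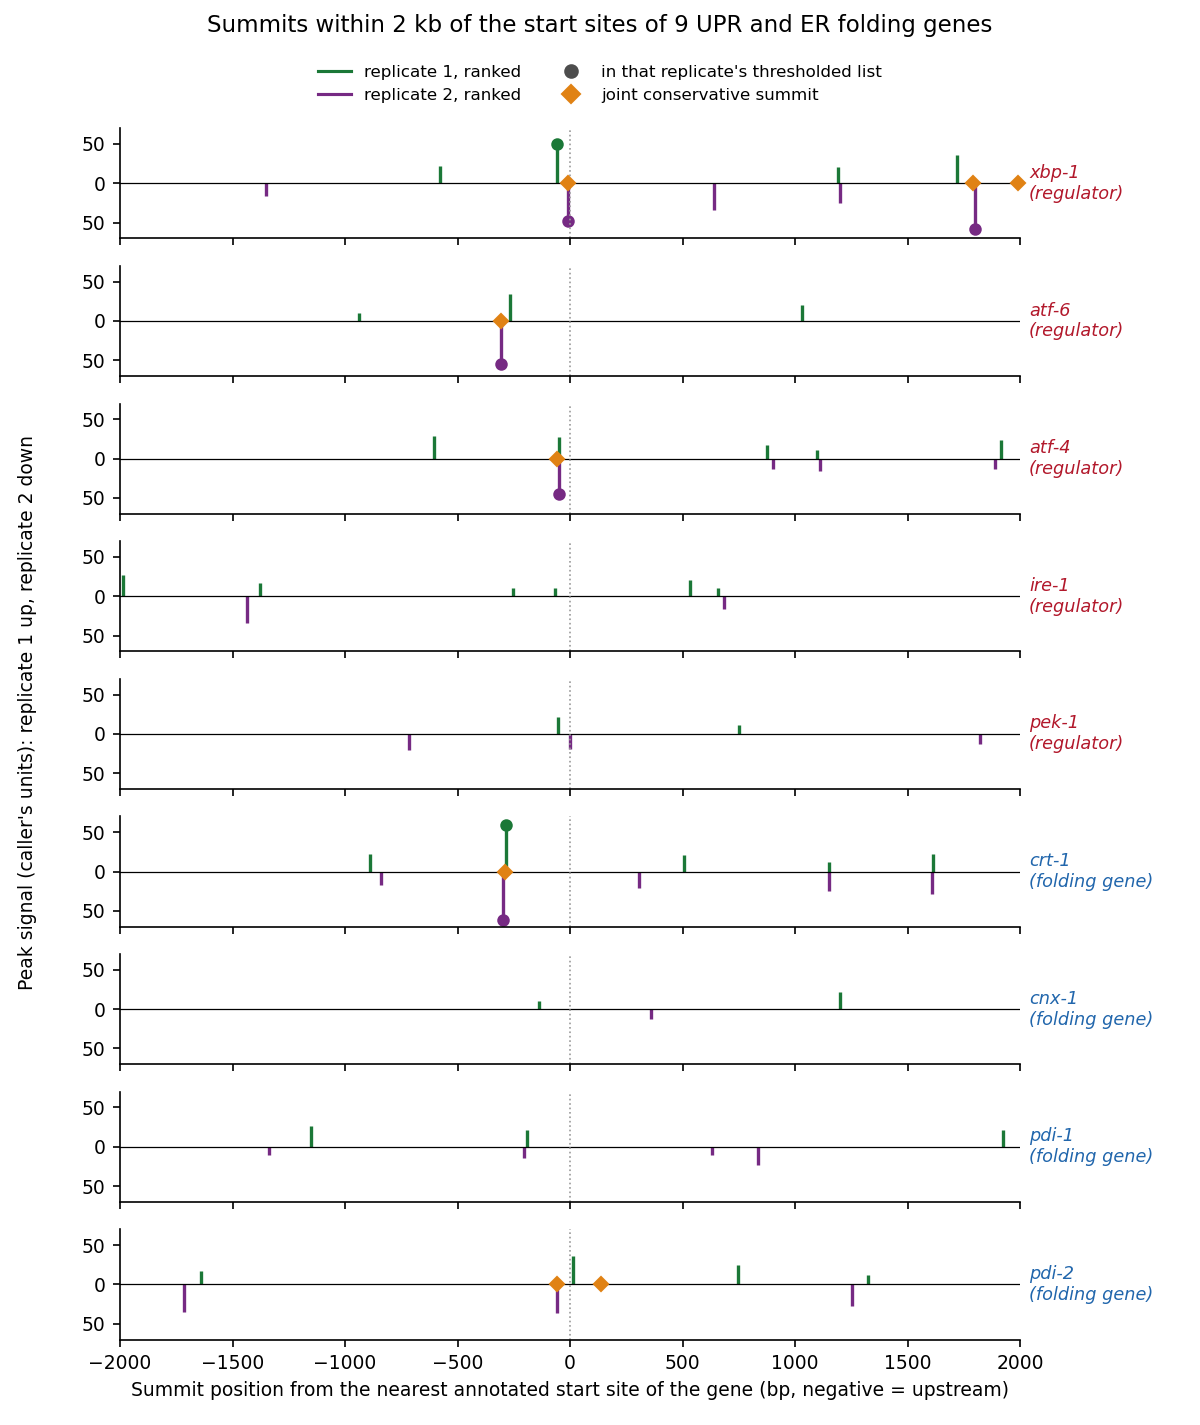
Summits within 2 kb of the start sites of the 9 genes, by distance from the nearest annotated start site (bp). Line height is the signal in the ranked list of replicate 1 (up) or replicate 2 (down), dots mark peaks that are also in that replicate's thresholded list, and diamonds mark joint conservative summits. The replicates share a line at the starts of xbp-1, atf-6, atf-4, crt-1 and pdi-2, and xbp-1 has another past its 3′ end. Lines of a height like that at the start also stand 604 bp upstream of atf-4 in replicate 1 (28.4) and 1715 bp upstream of pdi-2 in replicate 2 (35.0). The farther diamond of xbp-1 and the downstream diamond of pdi-2 are weak conservative peaks with a signal of 8.36 and 8.29.

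Taken over all genes, the strongest ranked summit within 500 bp placed these 5 start sites high in each replicate. They were picked out by a conservative peak from the same replicates, so a high place was built in and is a description only. For crt-1 98.9% of protein-coding genes had a lower value in replicate 1 and 98.6% in replicate 2, with genes without a summit counted as 0. The shares were 98.4% and 97.9% for xbp-1, 97.02% and 98.3% for atf-6, 95.3% and 97.7% for atf-4 and 97.4% and 96.5% for pdi-2. For pek-1 they were 90.6% and 84.02%, for pdi-1 90.6% and 73.9%, and for cnx-1 67.7% and 69.99%. For ire-1 the share was 68.2% in replicate 1, for the summit at its inner start. Within the conservative list the 5 peaks were ordinary, with ranks from 383 to 953 of 1346, and xbp-1, atf-6 and crt-1 were above its median.

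Regulators and folding genes overlapped in these values. The strongest ranked summit within 500 bp ran from 11.1 to 50.3 over 5 regulators and from 10.9 to 58.8 over 4 folding genes in replicate 1. In replicate 2 it ran from 18.7 to 54.3 over the 4 regulators that had a summit and from 12.2 to 61.1 over the 4 folding genes. The ranges overlapped almost entirely in both replicates. Medians in replicate 1 were 27.9 for regulators and 29.0 for folding genes. In replicate 2, with ire-1 counted lowest, they were 45.3 and 25.3, so the replicates differed in this. Genes are not replicates of a condition, so no test was made between them. In the thresholded list of replicate 1, 1 of 5 regulators (xbp-1) and 1 of 4 folding genes (crt-1) had a summit within 500 bp, against 2.02% of all genes. In that of replicate 2 the numbers were 3 of 5 (xbp-1, atf-6 and atf-4) and 1 of 4 (crt-1), against 2.32%. Within 2000 bp the same genes had a summit, against 4.14% of all genes in replicate 1 and 4.53% in replicate 2. Of the single-replicate thresholded lists, atf-6 and atf-4 were thus in that of replicate 2 only.

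**Figure D2:**
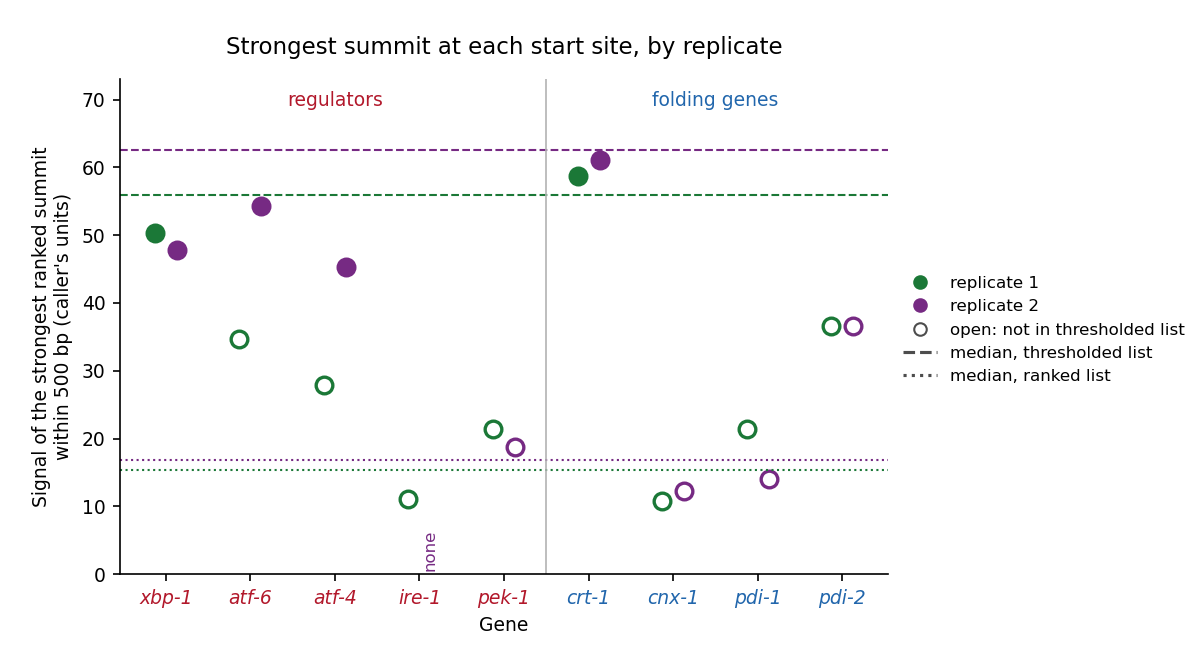
Signal of the strongest ranked summit within 500 bp of a start site for 5 regulators (left) and 4 folding genes (right), in replicate 1 and replicate 2. Filled points are in that replicate's thresholded list, and lines give the median signals of the thresholded lists (dashed) and ranked lists (dotted). The groups overlap in both replicates, only xbp-1 and crt-1 are filled in both replicates, and ire-1 has no summit in replicate 2.

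All 5 conservative summits nearest the starts lay upstream of the nearest TSS, as did 81.98% of the 577 conservative summits at coding starts. The replicate summits at the 5 sites were 0 to 75 bp apart, against a median of 26 bp over the 1331 conservative peaks with a ranked peak in both replicates. Base composition at 3 of the sites was far from that of most conservative peaks. In the 151 bp centred on the summit, GC content was 67.5% at pdi-2, 63.6% at atf-6 and 60.9% at crt-1, higher than at 99.6%, 98.7% and 97.2% of conservative summits, whose median was 46.7%. The stretches printed above show runs of C at pdi-2 and atf-6. GC content was 49.7% at the xbp-1 start and 46.4% at atf-4, near the median, and 31.1% at the site past the 3′ end of xbp-1, with 2.82% of conservative summits lower. Regulators and folding genes with a peak both included a GC-rich site. The part of base composition in the signals was not tested.

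**Figure D3:**
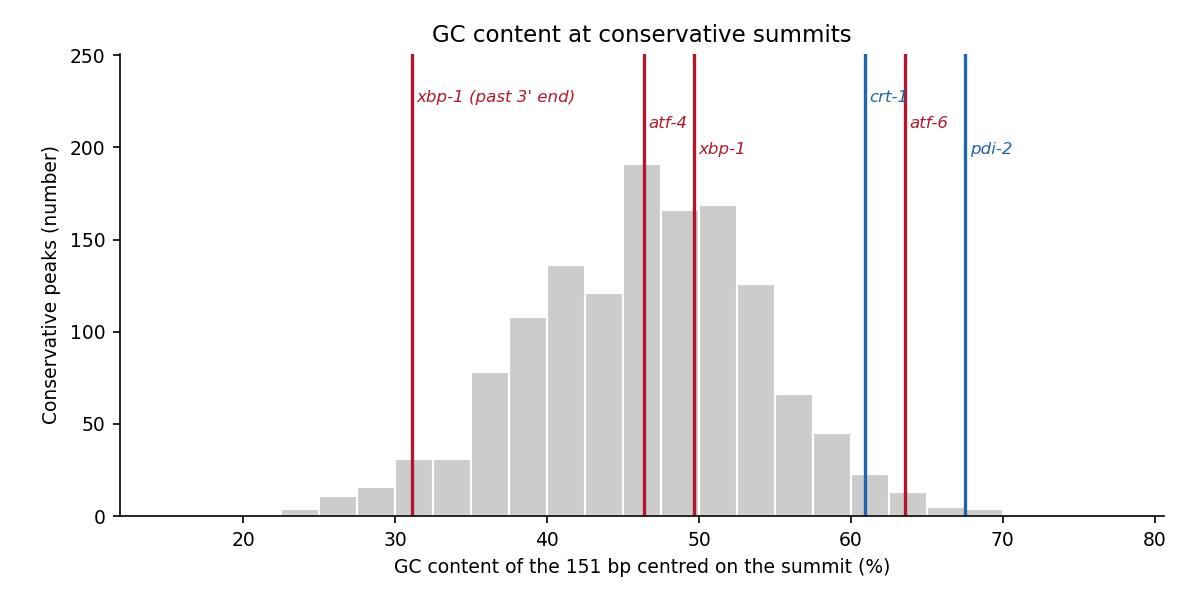
GC content of the 151 bp centred on the summit (%) for all 1346 conservative peaks (bars, number of peaks), with lines for the peaks of regulators and of folding genes. The lines for crt-1, atf-6 and pdi-2 stand in the upper tail at 60.9%, 63.6% and 67.5%, and the site past the 3′ end of xbp-1 in the lower tail at 31.1%.

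For each gene with a conservative peak, the gene most like it was taken from 646 genes by the distance between their log2 signals in replicates 1 and 2, over these 2 samples alone. For crt-1 it was egl-17 (58.6 and 60.9, distance 0.0047), for atf-6 ndx-6 (34.3 and 53.7, distance 0.024), for xbp-1 ubc-3 (49.6 and 48.9, distance 0.038), for pdi-2 famh-136 (37.7 and 36.5, distance 0.041) and for atf-4 hmg-1.1 (27.6 and 46.9, distance 0.051). These are likenesses of signal only.

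Elsewhere in the ER pathway, conservative summits were within 500 bp of 6 of 11 genes for entry into the ER, 4 of 11 for folding, 1 of 5 for N-glycosylation and 1 of 10 for degradation; the lists were not tested against each other. The 54 further genes were listed by role with some of their peaks already known, so their counts are a description beside the 3.27% of all genes. The 6 genes for entry into the ER were the translocon genes sec-61.G (signal 302) and sec-61.B (184), the translocon-associated genes trap-3 (184) and trap-2 (97.3), dnj-29, the worm Sec63 gene (215), and the signal peptidase gene spcs-2 (140). All 6 were in the thresholded lists of both replicates. However, sec-61.B and trap-3 share a single peak between their starts. The dnj-29 peak was nearer to the start of ndua-2 than to that of dnj-29. The spcs-2 peak also reaches mrg-1 and that of trap-2 reaches ile-2, in both cases farther off than the listed gene.

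Of 11 other folding factors, 4 had a conservative summit: the BiP gene hsp-3 (185), enpl-1, which encodes the ER Hsp90 (139), the disulfide isomerase gene pdi-6 (109) and dnj-20, an ER J-domain gene (58.4). The peak of enpl-1 also reaches imp-2. The first 3 were in both replicates' thresholded lists and dnj-20 in neither. In replicates 1 and 2 the signals were 71.7 and 110.9 at hsp-3, 52.9 and 91.7 at enpl-1, 54.2 and 54.7 at pdi-6 and 31.7 and 32.9 at dnj-20. The second BiP gene, hsp-4, had ranked summits of 21.6 and 14.8 and no thresholded peak. Among related genes, hsp-3 but not hsp-4, pdi-2 and pdi-6 but not pdi-1 and pdi-3, and crt-1 but not its membrane-bound relative cnx-1 had a conservative peak. These pairs were set side by side after the values were seen, and the differences within them were not tested.

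The remaining lists had a conservative peak at 1 gene each or at none. Of 5 genes for N-glycosylation, dad-1, an oligosaccharyltransferase subunit gene, had a peak (220), which was nearer to the start of tre-1. Of 10 genes for ER-associated degradation, rnf-121, an ER ubiquitin ligase gene, had a peak (81.9, in the thresholded list of replicate 2 alone). The rnf-121 peak was nearer to the start of C16C10.4 than to that of rnf-121. None of 3 other signalling genes had a conservative summit, among them rtcb-1, the ligase that joins the spliced xbp-1 exons, and none of 14 abu genes, a family named for its activation when the UPR is blocked. The 12 genes with a peak shared 11 distinct peaks with a median signal over genes of 162, and 10 of the 12 were in the thresholded list of replicate 1 and 11 in that of replicate 2.

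**Figure D4:**
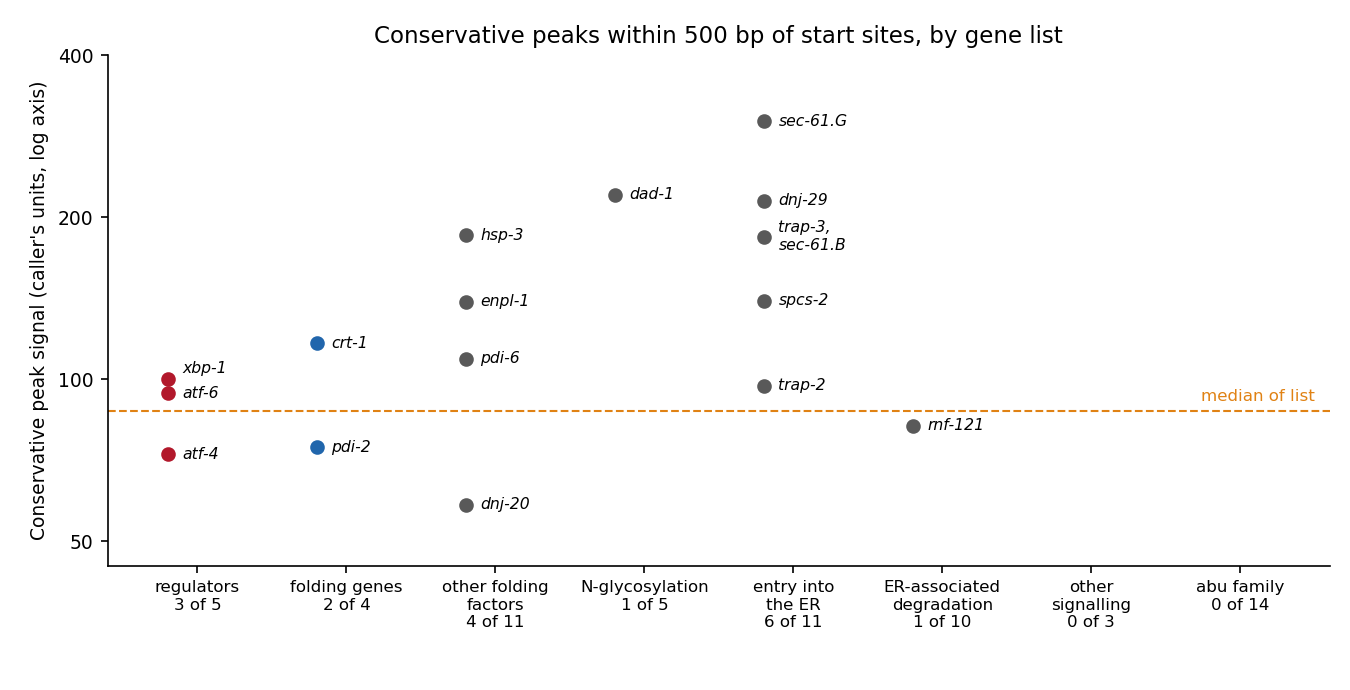
Conservative peak signal (caller's units, log axis) for genes with a summit within 500 bp of a start site, by gene list, with the number of genes with a peak and the number in the list under each column. The dashed line is the median of the conservative list, 87.4. The 6 genes for entry into the ER run from 97.3 to 302, and no peak stands in the columns of other signalling genes and abu genes.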

How the data were processed

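Per the deposited descriptions of the files, all lists are on ce11. A replicate's lists came from that replicate's filtered alignments, whereas the alignments of the 2 replicates were combined for the joint lists, and all had 1 more input in common. Aligner and caller are not given in the sources used, and the role of the common input is not stated either. The labels give a fragment size range of 200 to 800 after sonication. The authors' deposited signal is the caller's value per peak, used within a list. The authors' IDR score, as deposited, reaches 1000 at most. Depth is unknown, since the lists hold no read numbers.

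Summits were assigned to 29314 TSSs of protein-coding transcripts of 19973 genes (Ensembl release 115, WBcel235, which ce11 names) at 500 and 2000 bp. All peaks and genes ended within the chromosome lengths of that assembly. A joint peak was matched to the strongest replicate peak that overlapped it by 1 bp or more. Words were searched on both strands at 6 conservative peaks, leaving out 2 with a signal below 10. ERSE, ERSE-II and both palindromes were added after the sequences were seen. Of 58 further pathway genes listed, 54 matched the annotation by name. The members and lists were chosen with earlier results of these data known, and no test was made. All 9 members are named, as is every listed gene with a conservative summit within 500 bp. The assignment was tested on simulated data. Python 3.11.15, pandas 2.3.3 and numpy 2.4.6 were used. Alternatives were other peak lists, windows, start sites and matching rules.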

Additional observations from a re-analysis of the deposited data

How the results depend on the processing

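The count of 5 of 9 genes with a conservative summit within 500 bp was also 5 in the optimal list, at 1000 bp, with gene 5′ ends only and with any overlap of the interval. It was 3 among peaks at or above the median signal and 3 at 250 bp, where atf-6 and crt-1 lie out of reach by construction, and it ranged from 2 to 4 with a replicate left out. Within 2000 bp it was 3 among peaks at or above the median signal, and 2 to 4 with a replicate left out. Counts with a replicate left out are those of the other replicate's own thresholded list. These lists held 748 peaks in replicate 1 and 790 in replicate 2, against 1346. A missing replicate and a shorter list cannot be told apart in such counts. The regulators' count of 3 ranged from 1 to 3 with a replicate left out. The folding genes' count of 2 was 1 without either replicate, 1 among peaks at or above the median signal and 1 at 250 bp. The 12 of 54 other pathway genes became 7 at 250 bp, and 10 to 11 with a replicate left out. Of these alternatives, only the replicates' own lists have a share of all genes given above, and the other counts lack that comparison. Matching by summits within 100 bp gave the same replicate signals for all 6 member peaks. With 75 bp on either side of the summit, GAGAGA was at 2 in place of 4 of the 6, and at 32.5% in place of 44.7% of all conservative summits. No paired analysis was possible because there was a single group of 2 replicates. The depth is unknown, so whether a gene without a thresholded peak could have had one detected cannot be judged, and a missing peak does not show that the protein was absent.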

Other observations

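Weak conservative peaks lay beside 2 of the stronger ones. At pdi-2 a second conservative peak (X, 4524164 to 4524483) had a signal of 8.29 and rank 1293 of 1346, and past the 3′ end of xbp-1 another (III, 4195652 to 4195971) had 8.36 and rank 1292. Both had an IDR score of 1000, and each overlapped a conservative peak of higher signal and the same ranked peak in each replicate as that neighbour did. In the whole conservative list 126 of 1346 peaks (9.36%) overlapped a peak of higher signal, with a median signal of 9.55. At pdi-2 and past xbp-1 a count of conservative peaks is therefore larger than the number of separate peaks in either replicate's own ranked list. The joint ranked list holds both weak peaks as separate entries.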
